A study of Mus musculus with 11 samples.

Results

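Imprinted genes were followed in mouse embryonic fibroblasts (MEFs), connective tissue cells grown from embryos, that carried different alleles of Trex1, the gene of a DNA exonuclease. The 37 genes were those of a list of mouse imprinted genes, matched by name to the deposited count table, and all 37 had an entry there. Of these, 35 passed the filter on low counts that left 16990 genes of the whole table for testing. Phlda2, with 0 to 9 counts per library, and Snurf, with 0 in every library, did not. The exons of Snurf lie wholly inside those of Snrpn and a neighbouring annotated gene, so its reads cannot be assigned to it alone.

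RNA-seq libraries came from 4 genotypes: 3 WT, 3 Trex1-/-, 3 Trex1 D18N and 2 Trex1 p212fs, 11 in all. The embryos were of embryonic day 13.5 and the cells were collected at passage 2. No other allele or agent is named for any group, and neither is the zygosity of the D18N and p212fs alleles, so WT differs from the others, per the labels, by Trex1 genotype alone. The growth protocol, shared by all libraries, names both primary and spontaneously immortalized MEFs, and the labels do not say whether replicates came from separate embryos. The Trex1-/- and the D18N libraries each include both sex patterns described below, so more than 1 embryo stands behind each of these groups. For the WT and p212fs libraries this cannot be told, and their part of the spread may be technical. All groups share 1 estimate of the spread in the fit, so p-values do not measure that of WT or p212fs alone.

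Imprinted genes are transcribed mainly from the copy inherited from one parent. The choice is carried by DNA methylation laid down in egg or sperm at control regions, each of which governs a cluster of neighbouring genes, often through a long noncoding RNA or the insulator protein CTCF. Many of the genes restrain or promote fetal growth, and mesenchymal cells of the embryo are among the tissues where they are known to be most active. The read counts do not separate the parental alleles, so a level below is the sum of both, and loss of imprinting was not measured.

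Library totals ran from 16073955 to 21765536 counts. Levels are given as CPM, the count of a gene scaled to 1000000 named counts of its library, so that 1 CPM corresponds to about 16 to 22 counts. Trex1 was at 0 counts in every library, WT included, and therefore checks no genotype label. Every pair of replicates differed by more than sampling noise. Xist, the RNA of the inactive X chromosome, and the Y-linked Ddx3y separated the libraries by sex pattern: all 3 WT libraries, Trex1-/- replicate 2 and D18N replicate 1 had the female pattern, and the other 6, both p212fs libraries among them, the male one. Between p212fs and WT taken alone, sex pattern and genotype cannot be told apart. The fibroblast markers Col1a1 and Col1a2, the chains of type I collagen, led the fibroblast list in these cells, and the summed level of its 13 genes was 54119 to 59832 CPM in WT, 56304 to 65379 in Trex1-/-, 75954 to 87822 in D18N and 26768 to 31312 in p212fs. Markers of trophoblast and yolk sac and of erythroid cells stayed at or under 7.37 and 1.06 CPM in sum.

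The regulatory sequences of 4 members are shown: Dlk1 and Meg3, neighbours in one cluster that differed in opposite directions in D18N, Usp29, whose window overlaps that of Peg3, and Asb4, which was called in p212fs against each other genotype. Each is the window from 250 bases before to 50 bases after the most upstream RefSeq transcription start, on build GRCm38.p6, with every CpG, the dinucleotide that DNA methylation marks, in capitals.
Dlk1, chr12:109452573-109452872, plus strand: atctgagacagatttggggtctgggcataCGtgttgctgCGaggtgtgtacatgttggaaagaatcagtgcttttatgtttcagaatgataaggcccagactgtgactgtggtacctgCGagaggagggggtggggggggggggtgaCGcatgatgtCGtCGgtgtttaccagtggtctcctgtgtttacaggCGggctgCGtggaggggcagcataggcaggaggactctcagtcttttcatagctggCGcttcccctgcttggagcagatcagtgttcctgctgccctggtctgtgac
Meg3, chr12:109540746-109541045, plus strand: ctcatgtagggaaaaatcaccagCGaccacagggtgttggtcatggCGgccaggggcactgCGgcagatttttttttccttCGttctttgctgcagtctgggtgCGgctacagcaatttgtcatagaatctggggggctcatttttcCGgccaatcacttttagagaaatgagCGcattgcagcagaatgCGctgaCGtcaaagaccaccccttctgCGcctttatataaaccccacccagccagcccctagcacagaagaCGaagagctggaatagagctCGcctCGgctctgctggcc
Usp29, chr7:6730333-6730632, plus strand: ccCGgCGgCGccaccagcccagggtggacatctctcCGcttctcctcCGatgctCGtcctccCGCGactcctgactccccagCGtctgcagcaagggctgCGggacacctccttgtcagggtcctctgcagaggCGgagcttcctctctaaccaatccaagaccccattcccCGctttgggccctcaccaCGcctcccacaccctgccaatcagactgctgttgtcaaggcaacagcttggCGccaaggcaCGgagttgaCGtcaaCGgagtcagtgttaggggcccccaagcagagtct
Asb4, chr6:5383136-5383435, plus strand: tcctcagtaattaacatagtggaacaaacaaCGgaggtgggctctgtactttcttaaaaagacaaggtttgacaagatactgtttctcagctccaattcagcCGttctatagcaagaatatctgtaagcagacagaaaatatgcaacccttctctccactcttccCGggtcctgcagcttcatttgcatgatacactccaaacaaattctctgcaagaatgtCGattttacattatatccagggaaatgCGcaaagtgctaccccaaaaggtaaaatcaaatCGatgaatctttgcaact
The windows hold 9, 13, 17 and 6 CpG, in that order. The Usp29 window shares 263 bases with that of Peg3, which starts on the opposite strand. Of the 37 members, 31 had at least 1 such window and 48 windows in all were searched on both strands. Their median was 11 CpG, against 7 over all 32851 windows of the same length. TGCCGC, the core of the motif of the imprint-keeping protein ZFP57, occurred in 11 of 48 windows (22.9%) and in 11.6% of all windows. GCCATNTT of YY1 occurred in 3 (6.25%, all windows 6.05%), CAGCTG, an E-box of muscle factors, in 4 (8.33%, 16.3%), TATAAA in 10 (20.8%, 13.6%), and the CTCF motif in 0 (0.0365%). A match describes these letters only. The CTCF motif, in 12 of all 32851 windows, is too rare for its absence from 48 to tell anything. Control regions were not searched as such, and H19, Rtl1, Cdkn1c, Peg10, Sgce and Impact had no window. Some members share windows or have several, so windows are not independent.

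Several members are also hosts of microRNAs, short RNAs that pair with messages through bases 2 to 8, the seed, shown in capitals below. A selection is shown: 7 of those inside Meg3, Rian and Mirg, the noncoding transcripts called in D18N, then 1 each at Rtl1, H19 and Mest. Igf2 and Usp29 also host 1 microRNA gene each. Mirg alone contains 14 microRNA genes with 26 mature products and 25 different seeds, and its miR-453 and miR-496a-5p have the same seed.
miR-770-5p in Meg3: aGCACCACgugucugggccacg
miR-341-3p in Rian: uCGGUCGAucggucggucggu
miR-370-3p in Rian: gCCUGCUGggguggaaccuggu
miR-134-5p in Mirg: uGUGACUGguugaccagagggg
miR-410-3p in Mirg: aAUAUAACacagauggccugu
miR-453 in Mirg: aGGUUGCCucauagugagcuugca
miR-496a-5p in Mirg: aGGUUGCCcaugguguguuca
miR-127-3p opposite Rtl1: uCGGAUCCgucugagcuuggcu
miR-675-5p in H19: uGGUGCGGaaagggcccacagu
miR-335-5p in Mest: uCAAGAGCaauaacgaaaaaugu
The libraries measured the host transcripts, and levels of the mature microRNAs are not analysed here. Since miR-127 lies on the strand opposite Rtl1, and the strand setting of the counting is not given in the sources used here, reads of Rtl1 and of its antisense transcripts cannot be told apart.

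**Figure D1:**
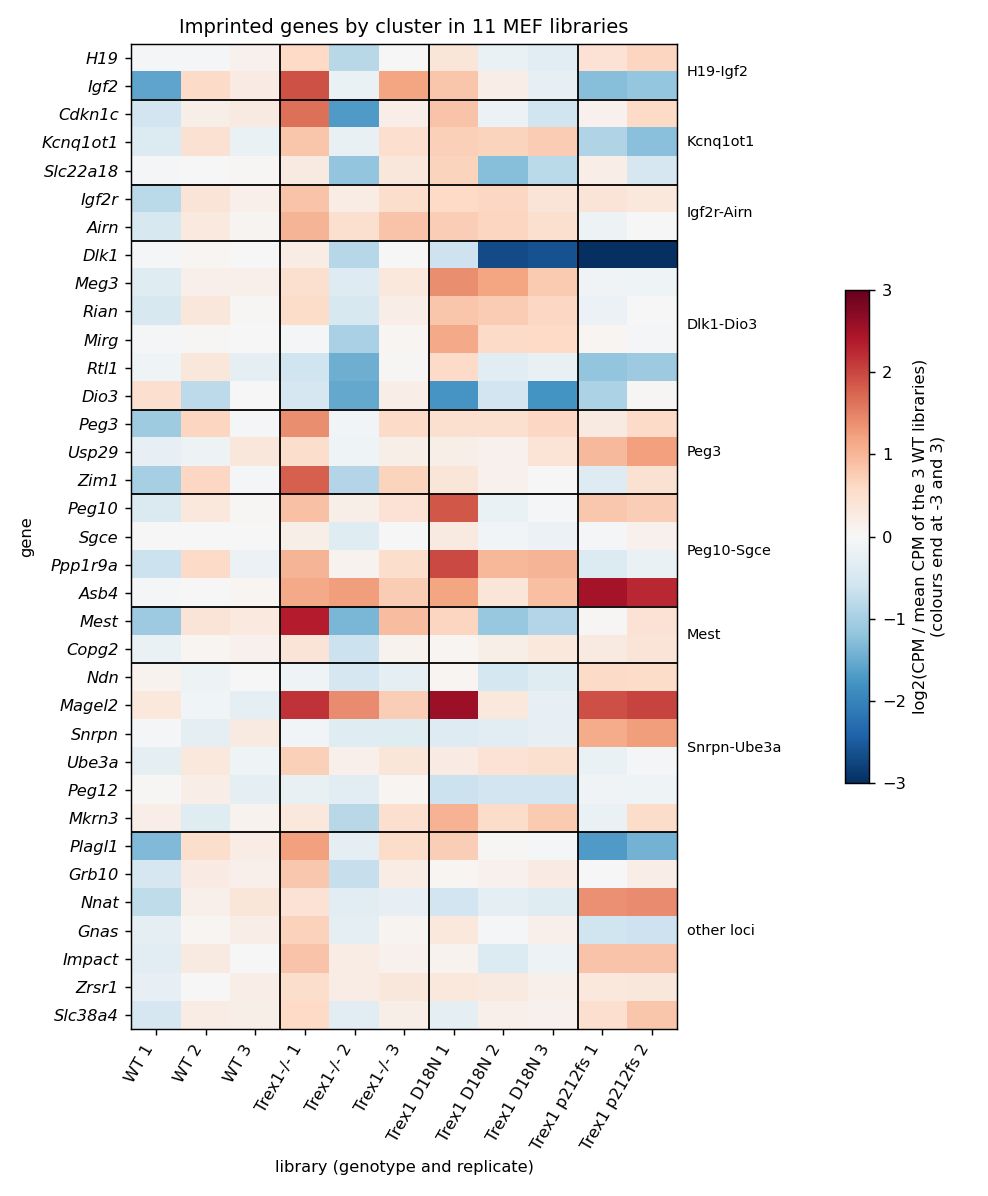
Level of each imprinted gene in each of the 11 libraries, as log2 of its CPM over the mean CPM of the 3 WT libraries, with colours ending at -3 and 3. Genes are in rows by cluster and libraries in columns by genotype and replicate; Trex1-/- replicate 2 holds the lowest Trex1-/- value for 32 of 35 genes and Trex1-/- replicate 1 the highest for 28.

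Levels spanned more than 4 orders of magnitude per unit of length. H19, a maternally expressed noncoding RNA that restrains growth, had by far the highest level, with a mean over all libraries of 2754 CPM per kb of exon. Grb10, an adaptor that dampens insulin and growth-factor signalling, followed at 106 CPM per kb, Cdkn1c, an inhibitor of cyclin-dependent kinases, at 91.2, Dlk1, a membrane protein related to Notch ligands, at 75.2, and Igf2r, the receptor that removes IGF2, at 71.2. At the low end stood Kcnq1ot1, a noncoding RNA over 93092 bases, at 0.178 CPM per kb, and Magel2 at 0.0725. H19 alone made up 46.1% to 65.9% of the members' summed counts. The members together took 0.738% of named counts in Trex1-/- replicate 2 and 1.89% in Trex1-/- replicate 1, with the other libraries between.

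The spread inside a genotype was the first feature of the set. In Trex1-/-, 28 of the 35 tested members had their highest level in replicate 1 and 32 had their lowest in replicate 2. Over all tested genes the same 2 positions were taken by these libraries for 45.3% and 42.9% of genes. Mest, a hydrolase-like protein of embryonic mesoderm, read 804 CPM in replicate 1, 60.9 in replicate 2 and 302 in replicate 3, and Cdkn1c 472, 46.6 and 173 CPM. WT replicate 1 was lowest of the 3 WT libraries for 26 of 35 members (74.3%, all genes 46.0%), and D18N replicate 1 highest for 23 (65.7%, all genes 41.8%). The median ratio of highest to lowest library was 2.04 for members and 1.42 for all genes in Trex1-/-, 1.51 and 1.43 in WT, 1.39 and 1.31 in D18N, and 1.13 and 1.11 in the 2 p212fs libraries. More than 2-fold separated the extremes for 18 members in Trex1-/-, 9 in WT, 8 in D18N and 0 in p212fs. The share of all genes past 2-fold was not counted, so these numbers have no background beside them. These are descriptions of single libraries, and members of one cluster are not independent of each other. The high and low Trex1-/- libraries differ in sex pattern, male and female, and the third, of male pattern, lay between for 26 of the 35 members.

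**Figure D2:**
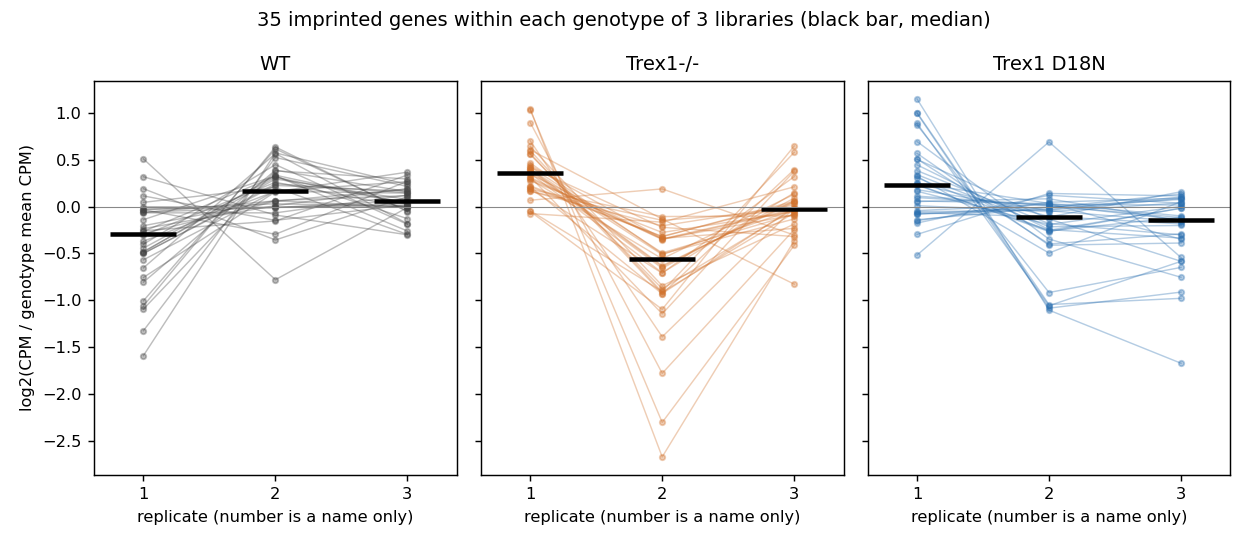
Level of each of 35 imprinted genes relative to the mean of its genotype, log2 scale, for the 3 genotypes with 3 libraries; each thin line is a gene and the black bar the median. The medians are 0.36, -0.56 and -0.03 in Trex1-/- replicates 1, 2 and 3, and -0.29, 0.17 and 0.06 in WT.

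Between genotypes, each gene was tested with edgeR's quasi-likelihood test, in 1 fit of the 11 libraries, and p-values were adjusted by the Benjamini-Hochberg method over all 16990 genes. A member is called where its adjusted p is under 0.05, and differences are log2 fold changes ± SE, negative where the first-named genotype is lower. In Trex1-/- against WT, 0 of 35 members were called, as for all genes (background 0%). At an unadjusted p under 0.05, 6 members and 3862 of all genes stood out, and the smallest adjusted p of a member was 0.115. The median log2 fold change was 0.21 over members and 0.01 over all genes, and 25 of the 35 were above 0. DESeq2 called 2 members, Airn and Asb4, beside 846 of 16990 genes, and leaving out WT replicate 2 gave 3, Airn, Asb4 and Ube3a, beside 2269 of 16878 genes.

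Against WT, D18N had 8 members called, 6 higher and 2 lower, which is 22.9% of those tested, beside a background of 25.3% of all genes (12.2% higher, 13.2% lower). In p212fs, 7 of 35 members were called, 5 higher and 2 lower, beside a background of 17.1% (8.13% higher, 8.95% lower). Both comparisons use the same WT libraries. Between the mutants, the members called were 16 in p212fs against D18N (6 higher, 10 lower, 45.7% beside a background of 38.7%, 18.6% higher and 20.1% lower), 12 in p212fs against Trex1-/- (5 higher, 7 lower, 34.3% beside 32.5%, 15.4% higher and 17.1% lower) and 2 in D18N against Trex1-/- (2 higher and 0 lower, 5.71% beside 6.80%, 3.95% higher and 2.85% lower). The shares of called members were thus near those of all genes in every comparison, and what follows describes single clusters.

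With the sex pattern as a term in the fit, 4 of 35 members were called in D18N against WT. Over all genes, 2379 of 16990 were called, beside 4303 without the term. The 4 members were Meg3 (1.07, adjusted p = 0.0213), Ppp1r9a (1.56, adjusted p = 0.027), Asb4 (1.12, adjusted p = 0.0129) and Dio3 (-2.02, adjusted p = 0.0479). The calls of Dlk1, Rian, Mirg, Airn and Peg12 against WT were lost under that term. With no filter on low counts, Dlk1 (-1.68, adjusted p = 0.122) and Airn (0.61, adjusted p = 0.0685) were not called in D18N either. In p212fs against WT, Asb4 (2.75, adjusted p = 9.6e-04) and Kcnq1ot1 (-1.52, adjusted p = 0.0341) were called with the term, and Dlk1, Snrpn, Nnat, Usp29 and Impact were not. Over all genes, 1331 of 16990 were called there, beside 2902 without the term. The term is estimated from Trex1-/- and D18N, the genotypes with libraries of both patterns.

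Summed levels of marker genes of other cell types also differed between the genotypes. The 25 skeletal muscle markers, led by Des and Myh3, summed to 68.1 to 113 CPM in WT, 62.9 to 83 in Trex1-/-, 104 to 127 in p212fs, and 1269 to 2942 in D18N, with all 23 tested higher in D18N than in WT. The 20 macrophage markers, led by Lyz2 and Csf1r, summed to 880.3 to 1195 CPM in WT, 268 to 412 in Trex1-/-, 548 to 726 in p212fs and 76 to 155 in D18N, and 19 of 20 were lower in D18N than in WT. Those of cartilage and bone, 15 genes led by Col2a1 and Spp1, summed to 2461 to 2729 CPM in p212fs and to 373 to 751 in the other genotypes. Most of the p212fs sum came from Spp1 (2079 and 1974 CPM) and Col2a1 (581 and 417 CPM), and of the 11 tested, 3 were higher and 1 lower in p212fs than in WT, with a median of -0.08. The 11 adipocyte markers, led by Lpl and Cebpa, summed to 159 to 363 CPM in WT, 141 to 193 in Trex1-/-, 379 to 926 in D18N and 94.7 to 104 in p212fs. Most of the D18N sum came from Lpl, at 821, 326 and 317 CPM. Of the 8 adipocyte genes tested against WT, 2 were higher and 0 lower in D18N, with a median log2 fold change of 1.24. In p212fs 0 were higher and 2 lower, with a median of -1.58. The 20 markers of neurons and glia summed to 319 to 402 CPM in WT, 249 to 293 in Trex1-/-, 118 to 154 in D18N and 192 to 223 in p212fs. Of the 18 tested against WT, 1 was higher and 7 lower in D18N, with a median log2 fold change of -1.41. In p212fs 0 were higher and 5 lower, with a median of -0.01. The 10 endothelium markers summed to 151 to 226 CPM in WT, 103 to 180.4 in Trex1-/-, 84.3 to 87.2 in D18N and 24 to 38.1 in p212fs. Most of the endothelium sum came from Flt1, at 149, 218 and 142 CPM in WT and 63.6, 67.7 and 72.7 in D18N. Of the 8 endothelium genes tested, 2 were higher and 1 lower in D18N than in WT, with a median log2 fold change of 1.03. In p212fs against WT, 0 were higher and 2 lower, with a median of 0.08. The part of all these markers in the results below was not tested. In bulk libraries such as these, fewer cells of a type and less RNA per cell cannot be told apart.

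The Dlk1-Dio3 cluster, on chromosome 12, held 4 of the 8 calls of D18N against WT. Its paternally expressed members encode proteins, Dlk1, an inhibitor of fat cell formation, Rtl1, a retrotransposon-derived protein, and Dio3, which inactivates thyroid hormone. Meg3, Rian and Mirg are the maternally expressed noncoding RNAs of the same cluster. In build GRCm38, Dlk1 spans chr12:109452823-109463336 and Meg3 chr12:109541001-109571726, both on the plus strand.

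Dlk1 read 649.6, 708 and 677 CPM in WT replicates 1 to 3, 785, 376 and 679.9 in Trex1-/-, 439.8, 106 and 111 in D18N, and 79 and 70.1 in p212fs. D18N replicates 2 and 3 and both p212fs libraries lay below all 6 WT and Trex1-/- libraries, and D18N replicate 1 stayed below every WT library but above the lowest Trex1-/- library. The low D18N and p212fs libraries have the male sex pattern, as have Trex1-/- replicates 1 and 3, at 785 and 679.9 CPM. D18N replicate 1, at 439.8 CPM, has the female one. Genotype differences with the sex-pattern term are given below, and the effect of sex pattern itself on these levels was not tested. The mean ± SD was 678 ± 29 CPM in WT (n = 3), 219 ± 191 in D18N (n = 3) and 74.6 ± 6.27 in p212fs (n = 2). Dlk1 was lower than in WT both in D18N (-1.63 ± 0.50, adjusted p = 0.0403) and in p212fs (-3.24 ± 0.63, adjusted p = 0.00949), the latter a 9.47-fold difference. It was also lower in p212fs than in Trex1-/- (-3.08 ± 0.63, adjusted p = 0.00621). With the sex-pattern term, Dlk1 was not called against WT in D18N (-1.31, adjusted p = 0.114) or in p212fs (-2.45, adjusted p = 0.0704). The D18N call was lost when any WT library, D18N replicate 2 or 3, or either p212fs library was left out, with log2 fold changes from -2.63 to -1.31 over the 11 such fits. The p212fs call against WT was lost without either p212fs library, with values from -3.33 to -3.15.

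Meg3 moved the other way in D18N. It read 575, 832 and 821 CPM in WT, 1030.0, 572 and 923 in Trex1-/-, 1947, 1676 and 1285 in D18N, and 686 and 675 in p212fs. The D18N libraries lay above all 8 others, with a mean ± SD of 1636 ± 333 CPM beside 743 ± 145 in WT (n = 3 each). The difference was 1.15 ± 0.22 against WT (adjusted p = 0.00531) and 0.99 ± 0.22 against Trex1-/- (adjusted p = 0.0222), while p212fs was lower than D18N (-1.33 ± 0.25, adjusted p = 0.00257). The call against WT held in every fit that left out 1 library.

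Rian and Mirg, which lie downstream of Meg3, were also higher in D18N. Rian read 389.7, 689.5 and 559 CPM in WT, 805, 394 and 630.2 in Trex1-/-, 979, 922 and 844 in D18N, and 480.0 and 542 in p212fs. Mirg read 28.7, 30.0 and 29.4 CPM in WT, 28, 15 and 30.7 in Trex1-/-, 64.3, 43.7 and 44.1 in D18N, and 30.4 and 28.5 in p212fs. In both, every D18N library was above every other library. Rian differed from WT by 0.76 ± 0.23 (adjusted p = 0.0341) and Mirg by 0.80 ± 0.22 (adjusted p = 0.0262), and Mirg from Trex1-/- by 1.07 ± 0.23 (adjusted p = 0.0188). Lower levels in p212fs than in D18N were called for both (-0.91 ± 0.26, adjusted p = 0.019, and -0.85 ± 0.26, adjusted p = 0.0222). The Rian call against WT held in 3 of 11 fits that left out 1 library, those without WT replicate 2 or Trex1-/- replicate 1 or 2, with values from 0.58 to 0.92 over all 11. The Mirg call held in 6 and was lost without any 1 WT library or D18N replicate 1 or 2, with values from 0.59 to 0.88.

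Rtl1 read 11.2, 15.5 and 10.3 CPM in WT, 8.18, 4.5 and 12.6 in Trex1-/-, 18.3, 9.74 and 10.5 in D18N, and 5.43 and 5.84 in p212fs. It was called only between p212fs and D18N (-1.26 ± 0.40, adjusted p = 0.0275), where the groups did not overlap. Dio3, at 0.892 to 4.43 CPM, was called in none of the 6 comparisons (smallest adjusted p = 0.101).

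As counts of the 2 transcripts, Meg3 to Dlk1 stood at 0.885, 1.18 and 1.21 in WT and 1.31, 1.52 and 1.36 in Trex1-/-. The ratio was 4.43, 15.8 and 11.6 in D18N, and 8.69 and 9.63 in p212fs, where Meg3 itself was near its WT level. Rian to Meg3 stayed between 0.503 and 0.829 and Mirg to Meg3 between 0.0261 and 0.05 over all 11 libraries. D18N replicate 1, which had the highest Dlk1 and the highest Meg3 of its genotype, also had the highest skeletal muscle sum of any library, 2942 CPM. The same library had the highest sums of adipocyte (926 CPM), epithelium (60.9) and trophoblast and yolk sac markers (7.37), and alone of D18N the female pattern. A link of any of these to Dlk1 or Meg3 was not tested.

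**Figure D3:**
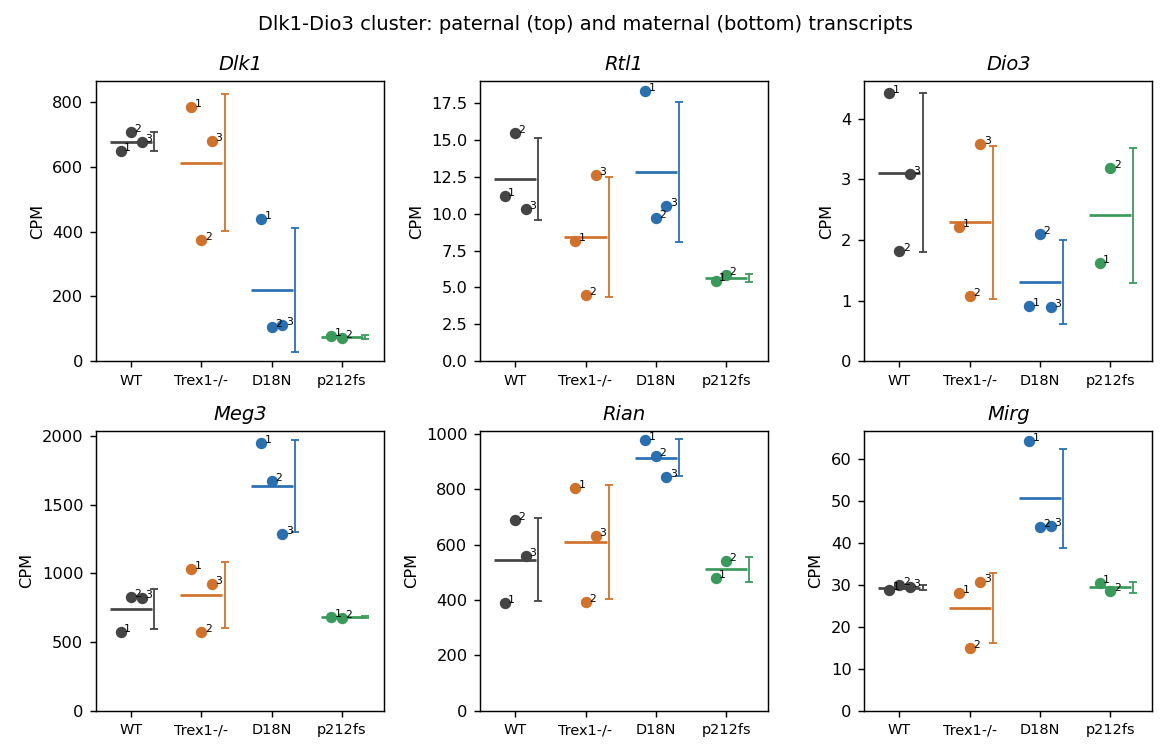
CPM of the 6 members of the Dlk1-Dio3 cluster in each library, with replicate numbers beside the points, a horizontal line at each genotype mean and a bar of ± 1 SD. The D18N points are the highest for Meg3, Rian and Mirg, and the D18N and p212fs points are low for Dlk1.

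In the Peg10-Sgce region of chromosome 6, Asb4 and Ppp1r9a differed. Asb4, a substrate receptor of a ubiquitin ligase complex that is maternally expressed, lies at chr6:5383386-5433022 in GRCm38. It read 3.49, 3.61 and 3.8 CPM in WT, 8, 8.7 and 6.18 in Trex1-/-, 8.22, 4.65 and 6.8 in D18N, and 20.6 and 17.4 in p212fs. Every mutant library exceeded every WT library, and both p212fs libraries exceeded all others. It rose in p212fs over WT by 2.32 ± 0.24 (adjusted p = 4.5e-04), over Trex1-/- by 1.26 ± 0.24 (adjusted p = 0.00334) and over D18N by 1.47 ± 0.24 (adjusted p = 0.00128), and in D18N over WT by 0.86 ± 0.23 (adjusted p = 0.0206). The 3 calls of p212fs held in every fit that left out 1 library; the D18N call was lost without WT replicate 1, WT replicate 3, D18N replicate 1 or D18N replicate 3, with values from 0.67 to 1.04 over the 11 fits.

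Ppp1r9a, which encodes the actin-binding protein neurabin, read 3.87, 9.03 and 5.37 CPM in WT, 12.4, 6.55 and 8.72 in Trex1-/-, 24.1, 12.2 and 12.4 in D18N, and 4.59 and 5.3 in p212fs. The D18N libraries lay above those of WT and p212fs. It was higher in D18N than in WT by 1.43 ± 0.35 (adjusted p = 0.0145) and lower in p212fs than in D18N (-1.78 ± 0.40, adjusted p = 0.00634). The first of these calls was lost when either WT replicate 1 or 3, or D18N replicate 1, was left out, within a range of 1.04 to 1.78. Peg10, a retrotransposon-derived gene, at 22.9 to 114 CPM, and Sgce, epsilon-sarcoglycan, at 43.7 to 68.1, were not called in any comparison (smallest adjusted p = 0.201 and 0.738). The 114 CPM of Peg10 came from D18N replicate 1.

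The human counterpart of the Snrpn-Ube3a cluster of chromosome 7 is linked to Prader-Willi and Angelman syndromes. Of its 6 tested members, 2 were higher and 1 lower in p212fs than in Trex1-/-, and likewise than in D18N. The backgrounds there are 32.5% and 38.7% of all genes. Against WT, 1 was higher in p212fs and 1 lower in D18N, beside 17.1% and 25.3%. Snrpn, a splicing protein, read 5.53, 4.61 and 6.83 CPM in WT, 5.38, 4.4 and 4.42 in Trex1-/-, 4.31, 4.54 and 4.8 in D18N, and 12.3 and 13.4 in p212fs. Both p212fs libraries were above all 9 others. The difference was 1.11 ± 0.21 against WT (adjusted p = 0.00637), 1.39 ± 0.21 against Trex1-/- (adjusted p = 0.00137) and 1.42 ± 0.21 against D18N (adjusted p = 8.4e-04). Annotated exons of Snurf and a further gene overlap 27.3% of those of Snrpn, and reads there cannot be told apart. Its call against WT was lost without either p212fs library, at 0.98 to 1.27 over all fits.

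Ndn, necdin, a protein that restrains cell growth, read 157, 131 and 147 CPM in WT, 133, 103 and 120.1 in Trex1-/-, 150.0, 101 and 112 in D18N, and 215 and 211 in p212fs. The p212fs libraries were the highest, with 0.80 ± 0.17 over Trex1-/- (adjusted p = 0.00517) and 0.75 ± 0.17 over D18N (adjusted p = 0.00556). Against WT the value was 0.49 (adjusted p = 0.0637), short of the threshold. Ube3a, the ubiquitin ligase of the cluster, read 41.3, 62.1 and 45.4 CPM in WT, 81, 55.2 and 64.3 in Trex1-/-, 58.8, 67.4 and 69.5 in D18N, and 43.2 and 48.4 in p212fs. The p212fs libraries were below every Trex1-/- and D18N library and within the WT range. It was lower in p212fs than in Trex1-/- (-0.59 ± 0.18, adjusted p = 0.0298) and than in D18N (-0.58 ± 0.18, adjusted p = 0.0271). It overlaps antisense transcripts over 27.3% of its exons.

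Peg12, a binding partner of the kinase GSK3, read 13.7, 15.3 and 10.8 CPM in WT, 11.4, 10.7 and 13.9 in Trex1-/-, 8.51, 8.91 and 8.87 in D18N, and 12.3 and 12.2 in p212fs. Every D18N library was below every other library. The difference from WT was -0.59 ± 0.17 (adjusted p = 0.0278), and the call was lost without WT replicate 1, WT replicate 2 or any 1 D18N library, with values from -0.73 to -0.51. Magel2 and Mkrn3, at most 0.794 and 2.78 CPM, were not called (smallest adjusted p = 0.14 and 0.132).

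In the Peg3 cluster, Usp29, a ubiquitin protease whose start lies beside that of Peg3, was the member that differed. It read 4.92, 5.29 and 7.43 CPM in WT, 8.51, 5.37 and 6.68 in Trex1-/-, 6.69, 6.48 and 7.81 in D18N, and 11.5 and 13.8 in p212fs. The p212fs libraries were the 2 highest of 11. The differences were 1.05 ± 0.24 against WT (adjusted p = 0.0133), 0.84 ± 0.23 against Trex1-/- (adjusted p = 0.0191) and 0.78 ± 0.23 against D18N (adjusted p = 0.0217). The call against WT was lost without either p212fs library, at 0.92 to 1.25, and 14.3% of Usp29 exons overlap Zim3 on the opposite strand. Peg3, a zinc-finger protein, read 175, 568 and 352 CPM in WT, 966, 344 and 543 in Trex1-/-, 506, 512 and 558 in D18N, and 437 and 543 in p212fs, and was not called (smallest adjusted p = 0.278), nor was Zim1, a maternally expressed zinc-finger gene, at 19.4 to 136 CPM (0.348).

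Among single loci, Nnat, an endoplasmic reticulum proteolipid, read 8.8, 16.6 and 19.2 CPM in WT, 20.1, 11.7 and 12.6 in Trex1-/-, 9.93, 12.2 and 11.5 in D18N, and 38.7 and 39.5 in p212fs. The p212fs libraries were above all others, with differences of 1.34 ± 0.28 against WT (adjusted p = 0.00998), 1.35 ± 0.28 against Trex1-/- (adjusted p = 0.00515) and 1.73 ± 0.28 against D18N (adjusted p = 0.00133). Impact, an inhibitor of the stress kinase GCN2, read 66.3, 98.1 and 81.3 CPM in WT, 149, 95.4 and 89.1 in Trex1-/-, 87.6, 61.8 and 73.6 in D18N, and 149 and 147 in p212fs. It was higher in p212fs than in WT by 0.80 ± 0.21 (adjusted p = 0.0258) and than in D18N by 0.92 ± 0.21 (adjusted p = 0.00633), but Trex1-/- replicate 1 reached the p212fs level. The Nnat and Impact calls against WT were lost without either p212fs library, and that of Impact also without WT replicate 3, at 1.1 to 1.58 and 0.69 to 0.93.

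Plagl1, a zinc-finger transcription factor known to act on other imprinted genes, read 102, 368 and 297 CPM in WT, 596, 209 and 376 in Trex1-/-, 425, 263 and 247 in D18N, and 78.2 and 95.7 in p212fs. The p212fs libraries were the lowest of all, and WT replicate 1 was next. They differed from Trex1-/- by -2.22 ± 0.55 (adjusted p = 0.0146) and from D18N by -1.91 ± 0.55 (adjusted p = 0.0209), while the difference from WT, -1.60 ± 0.54, did not pass (adjusted p = 0.0684). Gnas, the stimulatory G-protein alpha subunit, read 80.6 and 79.5 CPM in p212fs, below each of the other 9 libraries, whose highest was 196, and was lower in p212fs than in Trex1-/- (-0.86 ± 0.23, adjusted p = 0.015) and than in D18N (-0.82 ± 0.23, adjusted p = 0.0155), with 22% of its exons over antisense genes. Grb10, at 544 to 1534 CPM, the splicing factor Zrsr1, at 7.14 to 12.2, and the amino acid transporter Slc38a4, at 55.6 to 139, were not called (smallest adjusted p = 0.683, 0.2 and 0.0885).

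**Figure D4:**
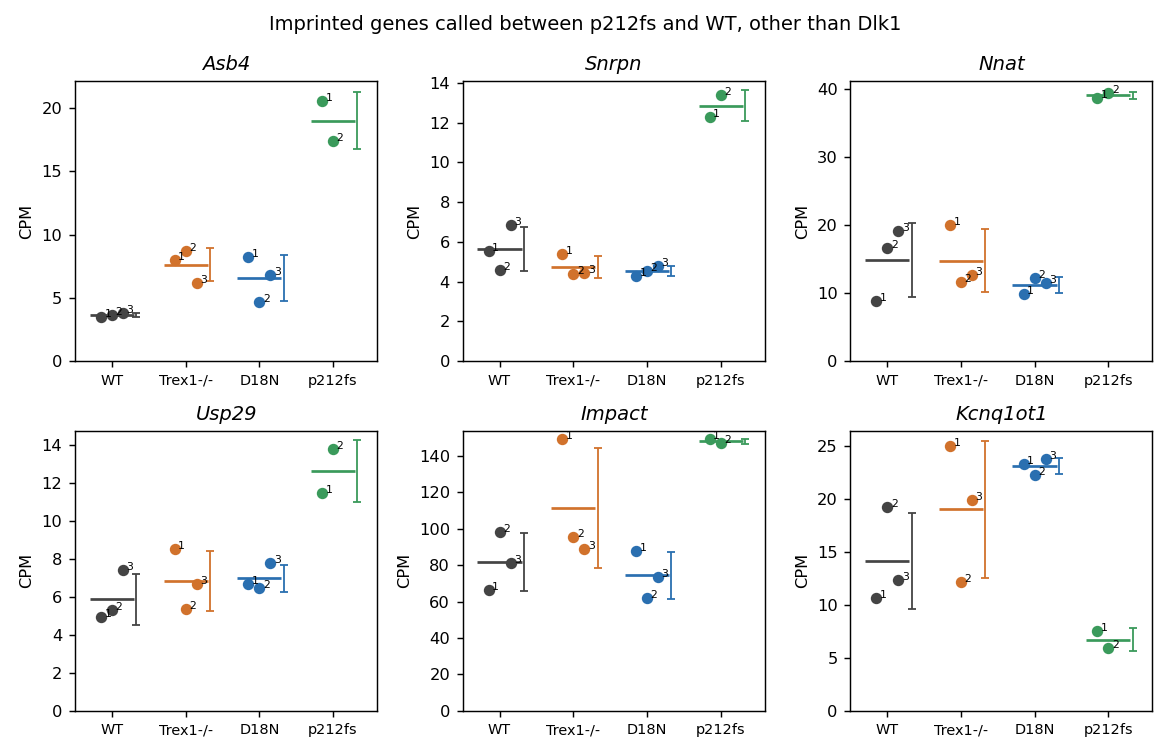
CPM in every library of 6 imprinted genes called between p212fs and WT, with replicate numbers, a line at each genotype mean and a bar of ± 1 SD. The p212fs points are the highest for Asb4, Snrpn, Nnat and Usp29 and the lowest for Kcnq1ot1, and for Impact they lie beside Trex1-/- replicate 1.

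In the Kcnq1ot1 cluster, Kcnq1ot1, the paternally expressed RNA that silences its neighbours in cis, read 10.7, 19.3 and 12.4 CPM in WT, 25, 12.2 and 19.9 in Trex1-/-, 23.3, 22.3 and 23.8 in D18N, and 7.51 and 5.95 in p212fs. The p212fs libraries were below all others. They differed by -1.12 ± 0.30 from WT (adjusted p = 0.0257), -1.54 ± 0.30 from Trex1-/- (adjusted p = 0.00389) and -1.85 ± 0.30 from D18N (adjusted p = 0.0013), and the excess of D18N over WT, 0.73 ± 0.25, did not pass (adjusted p = 0.0531). The call against WT was lost without WT replicate 2 or either p212fs library, at -1.3 to -0.85. Cdkn1c, at 46.6 to 472 CPM, and Slc22a18, a transporter at 0.72 to 2.78 CPM, were not called (smallest adjusted p = 0.624 and 0.778).

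Igf2r and Airn form a pair on chromosome 17 in which Airn, a paternal antisense RNA, silences Igf2r in cis. Airn read 5.31, 9.09 and 7.81 CPM in WT, 14.9, 10.3 and 13.4 in Trex1-/-, 12.4, 11.6 and 10.4 in D18N, and 6.61 and 7.35 in p212fs. It was higher in D18N than in WT by 0.65 ± 0.20 (adjusted p = 0.0361), and lower in p212fs than in Trex1-/- (-0.93 ± 0.23, adjusted p = 0.0115) and than in D18N (-0.79 ± 0.23, adjusted p = 0.019). Its D18N call was kept without WT replicate 2 or Trex1-/- replicate 1 or 2 and lost in the other 8 fits that left out 1 library, with values from 0.47 to 0.78, and it was also lost with library totals, with no filter and with the 2 genotypes alone. Igf2r, at 290.4 to 921 CPM, was not called (smallest adjusted p = 0.107). Counts of Igf2r to Airn were 54.7 to 73.3 in the WT, Trex1-/- and D18N libraries and 101 and 86 in p212fs.

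The H19-Igf2 pair holds the growth factor Igf2, expressed from the paternal copy, and H19 from the maternal copy, both under one CTCF-bound control region. Igf2 read 36.3, 163 and 129 CPM in WT, 409.9, 95.9 and 249 in Trex1-/-, 196, 126 and 92.1 in D18N, and 44.8 and 49.3 in p212fs. WT replicate 1 was as low as the p212fs libraries. Only the difference of p212fs from Trex1-/- was called, -2.45 ± 0.70 (adjusted p = 0.0248), and against WT it was -1.26 ± 0.66 (adjusted p = 0.216). An annotated gene on the same strand overlaps 62.8% of Igf2 exons. H19 read 3497 to 9789 CPM and was not called (smallest adjusted p = 0.234). H19 to Igf2 counts were 164, 36.5 and 52.7 in WT, 23.1, 36.5 and 25.4 in Trex1-/-, 40.9, 43.2 and 54.1 in D18N, and 187 and 199 in p212fs, so that WT replicate 1 fell beside p212fs. In the Mest cluster, Mest, at 60.9 to 804 CPM, and the coat protein subunit Copg2, at 26.3 to 54 CPM, were not called (smallest adjusted p = 0.297 and 0.377), and they overlap on opposite strands.

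**Figure D5:**
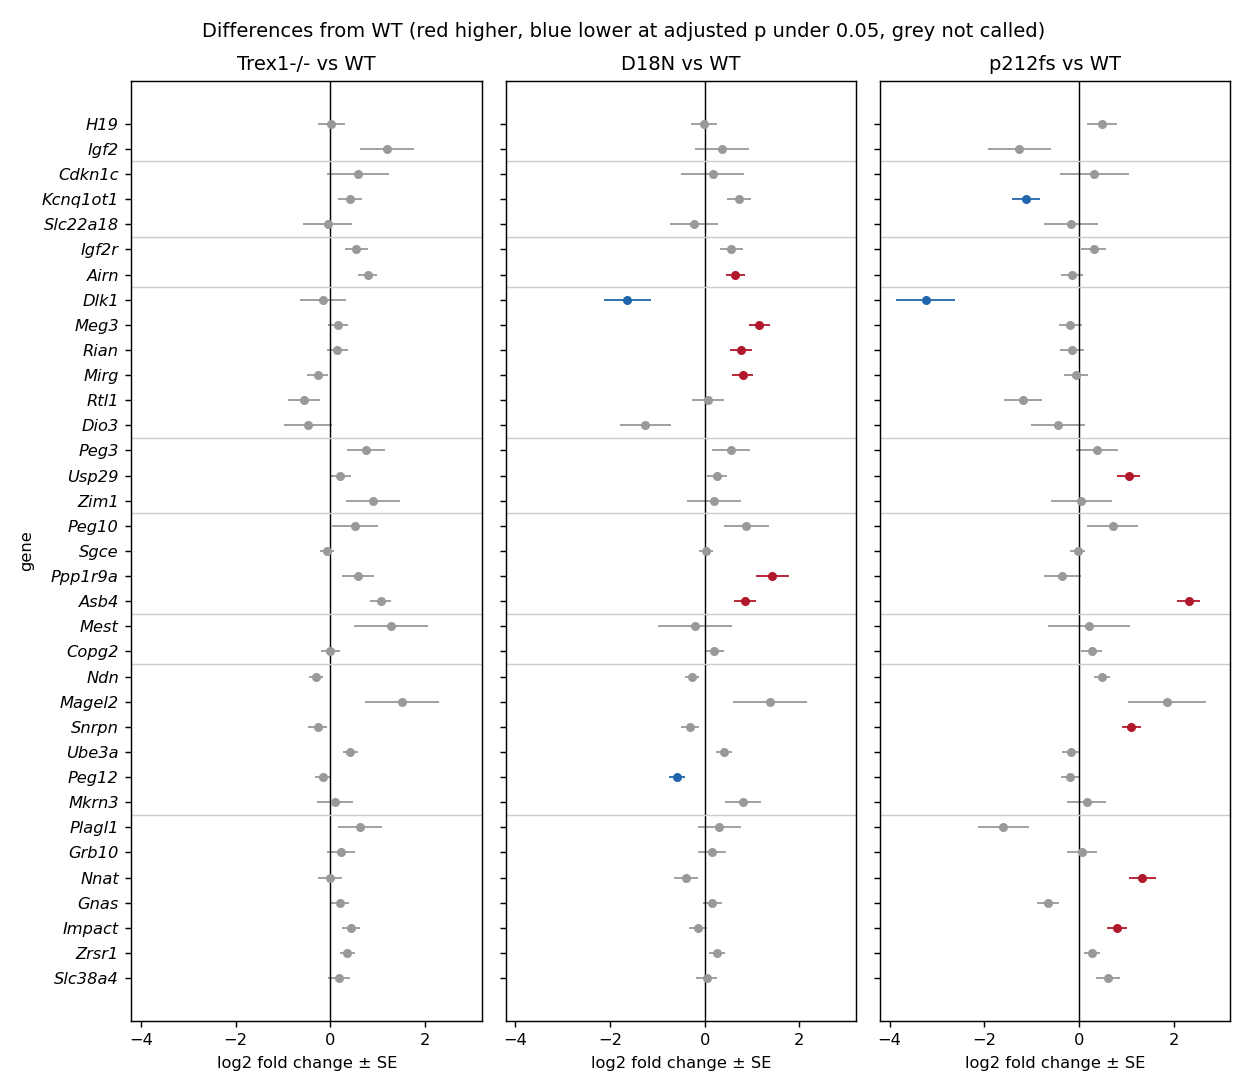
Log2 fold change ± SE of each tested imprinted gene in each mutant against WT; red points are called higher, blue lower, and grey not called at adjusted p under 0.05. The D18N panel holds 6 red and 2 blue points, the p212fs panel 5 and 2, and the Trex1-/- panel none.

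Calls between the mutants depended on the 2 p212fs libraries to a different extent. Those of Asb4, Ndn, Nnat and Snrpn in p212fs against Trex1-/- and against D18N held in every fit that left out 1 library, as did those of Meg3, Kcnq1ot1 and Impact against D18N. Against Trex1-/-, the calls of Dlk1 (-3.32 to -2.89), Plagl1 (-2.51 to -1.82), Igf2 (-2.83 to -1.94), Gnas (-1.05 to -0.59), Airn (-1.04 to -0.83), Usp29 (0.71 to 1) and Ube3a (-0.69 to -0.45) were lost without either p212fs library, and that of Kcnq1ot1 (-1.77 to -1.32) without replicate 2. Usp29 was also lost without Trex1-/- replicate 3, and Ube3a without Trex1-/- replicate 1 or 3. Against D18N, the calls of Rian (-0.96 to -0.8), Plagl1 (-2.04 to -1.62), Gnas (-0.88 to -0.72), Ube3a (-0.64 to -0.47), Mirg (-0.93 to -0.64), Rtl1 (-1.4 to -0.91), Airn (-0.84 to -0.68) and Usp29 (0.69 to 0.94) were lost without either p212fs library and that of Ppp1r9a (-1.93 to -1.37) without replicate 1. Mirg and Rtl1 were also lost without D18N replicate 1, Airn and Usp29 without D18N replicate 2, and Ube3a without D18N replicate 2 or 3. With no filter on low counts, the Plagl1 calls and the Igf2 call were lost. The Meg3 call of D18N against Trex1-/- (0.76 to 1.12) was lost without Trex1-/- replicate 3 or D18N replicate 1 or 2 and the Mirg call (0.8 to 1.24) without D18N replicate 1, and both were lost with only those 2 genotypes in the fit.

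Grouped by the parental copy that is known to be expressed, background that these counts do not test, 12 tested members are maternal and 21 paternal. Grb10 and Gnas were left apart because their copy depends on tissue. That of other members, such as Ube3a and Ppp1r9a, may depend on tissue too, so the grouping need not hold in these cells. In D18N against WT, 5 maternal members were higher and 0 lower, and 1 paternal member was higher and 2 lower, beside 12.2% of all genes higher and 13.2% lower. In p212fs against WT the numbers were 1 and 0 for maternal and 4 and 2 for paternal members, beside 8.13% of all genes higher and 8.95% lower. Between p212fs and D18N, 1 maternal member was higher and 5 were lower, and 5 paternal were higher and 4 lower, beside 18.6% and 20.1% of all genes. Meg3, Rian and Mirg supply 3 of the 5 maternal calls in D18N and come from one transcribed region, so they are not independent. The other 2, Asb4 and Ppp1r9a, both lie in the Peg10-Sgce region. The Rian and Mirg calls were lost with the sex-pattern term.

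A further 61 genes reported as imprinted in some mouse tissue but outside the list, of which 47 were tested, gave 0 calls in Trex1-/- (9 at an unadjusted p under 0.05), 5 higher and 6 lower in D18N, and 4 higher and 3 lower in p212fs, each against WT. That is 11 and 7 of 47, beside backgrounds of 25.3% and 17.1% of all genes. Most of the p212fs calls were lost without either p212fs library, where calls over all genes fell as well. Pon3, a lactonase, rose in D18N by 1.5 ± 0.18 (adjusted p = 5.3e-04), the matrix protein Smoc1 fell by 2.21 ± 0.29 (adjusted p = 9.6e-04), and Cdh15, which is also a muscle marker, rose by 4.54 ± 0.70 (adjusted p = 0.00242). In p212fs, Qpct rose by 1.23 ± 0.22 (adjusted p = 0.00504), Adam23 fell by 0.70 ± 0.14 (adjusted p = 0.00816) and H13 rose by 0.77 ± 0.16 (adjusted p = 0.00949).

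Genes that set or keep imprints, 27 listed and 25 tested, gave 0 calls in Trex1-/- (6 at an unadjusted p under 0.05), 3 higher and 6 lower in D18N, and 0 higher and 5 lower in p212fs. That is 9 and 5 of 25, beside the same backgrounds of 25.3% and 17.1%. The D18N count was 5 with the sex-pattern term. In p212fs, 0 regulators were called without either p212fs library and 2 without WT replicate 2, without WT replicate 3 or with the sex-pattern term. In D18N, Ezh2, a histone methyltransferase, fell by 0.93 ± 0.16 (adjusted p = 0.00384), Mbd3 by 0.99 ± 0.18 (adjusted p = 0.00446) and Trim28, the corepressor recruited by ZFP57, by 0.78 ± 0.16 (adjusted p = 0.0074). In p212fs, Tet3, a methylcytosine dioxygenase, fell by 1.26 ± 0.25 (adjusted p = 0.0082), Ctcf by 0.74 ± 0.15 (adjusted p = 0.00852) and Ehmt1 by 0.48 ± 0.13 (adjusted p = 0.0268).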

How the data were processed

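The authors deposited raw counts of reads per gene, whole numbers with unequal library totals and not normalized. GRCm39, featureCounts, HISAT2 and fastp are named in the submitters' processing notes; versions, the annotation and the strand setting are not given in the sources used here. Per the labels, RNA was taken with an RNeasy kit and libraries made with a SMARTer mRNA-seq kit.

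Of 55578 lines, 1654 had no gene name and were dropped (0.0804% to 0.129% of counts). Genes passing edgeR 4.0.16 filterByExpr (minimum count 10) were scaled by TMM and fitted with genotype alone over 11 libraries in R 4.3.3 by glmQLFit and glmQLFTest. SE is the size of the log2 fold change over the root of the F statistic. CPM were computed from named counts without TMM, and exon lengths from GENCODE M21 (GRCm38), with sequences from RefSeq GRCm38.p6. The pipeline was tested on simulated data. The members and lists were chosen with earlier results of these data known. Named members are those called with at least 5 CPM in a genotype; of the other lists, the 3 smallest adjusted p among called genes per comparison with WT. Alternatives are DESeq2 1.42.0, limma 3.58.1 voom, other scalings and filters, 2-genotype fits, a sex-pattern term, a replicate block and leaving out each library.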

Additional observations from a re-analysis of the deposited data

How the results depend on the processing

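Over 45 called member comparisons and 20 alternatives each, 771 of 900 values kept direction and call, 129 kept direction without passing the threshold, and 0 reversed; 13 comparisons passed under every alternative run. The causes were not tested.

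Members called in Trex1-/- against WT numbered 0 in the report. There were 1 with no filter (Asb4), 2 with DESeq2, 1 with a sex-pattern term and 0 with limma-voom. Calls over all genes were 261 of 31432, 846 of 16990, 380 of 16990 and 1 of 16990, in the same order. In D18N against WT the 8 became 4 with a sex-pattern term, while calls over all genes went from 4303 to 2379 of 16990. In p212fs against WT the 7 became 11 with DESeq2, 12 with only those 2 genotypes in the fit and 2 with a sex-pattern term. Calls over all genes went from 2902 of 16990 to 3746 of 16990, 3146 of 15758 and 1331 of 16990, in the same order. In D18N against Trex1-/- the 2 became 0 with 2 genotypes in the fit, while calls over all genes went from 1155 of 16990 to 417 of 15682. Leaving out each library gave 0 to 3, 1 to 9, 1 to 10, 1 to 3, 4 to 13 and 7 to 19 members called, in the order Trex1-/- against WT, D18N against WT, p212fs against WT, D18N against Trex1-/-, p212fs against Trex1-/- and p212fs against D18N. For D18N against WT the lowest came without WT replicate 1, where calls over all genes were 2249 of 16927. For p212fs against WT the lowest came without either p212fs library, in fits that kept 1 library of that genotype. Calls over all genes fell in those fits as well.

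For the other imprinted genes, the 0 in Trex1-/- against WT became 2 with no filter, 4 with DESeq2 and 2 with a sex-pattern term. The 7 in p212fs against WT became 13 with 2 genotypes in the fit, and the 5 in D18N against Trex1-/- became 1. Calls over all genes in these fits are given above. Leaving out libraries gave 0 to 6 (Trex1-/- against WT), 6 to 16 (D18N against WT) and 2 to 6 (D18N against Trex1-/-). The highest counts in p212fs were 11 against WT, 21 against Trex1-/- and 31 against D18N. Calls over all genes moved as well. They were 2269 of 16878 in Trex1-/- against WT without WT replicate 2, where 6 were called. They were 7162 of 16927 in p212fs against D18N without WT replicate 1, where 31 were called. For imprint regulators, Trex1-/- against WT gave 1 with DESeq2, and D18N against WT 5 with a sex-pattern term. In p212fs against WT there were 3 with library totals, 3 with no filter and 2 with a sex-pattern term. Calls over all genes there were 2924 of 16990, 2583 of 31432 and 1331 of 16990. D18N against Trex1-/- gave 6 with DESeq2 and 0 with 2 genotypes in the fit, beside 2035 of 16990 and 417 of 15682 genes. Leaving out libraries gave 0 to 7 (Trex1-/- against WT), 4 to 10 (D18N against WT) and 0 to 7 (D18N against Trex1-/-). The highest counts in p212fs were 9 against WT, 14 against Trex1-/- and 13 against D18N. In D18N against Trex1-/-, calls over all genes were 445 of 16907 without Trex1-/- replicate 3 and 1916 of 16894 without Trex1-/- replicate 1.

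Replicate numbers did not pair the samples: correlations of same-numbered deviations ran from -0.31 to 0.23. With the replicate block, regulators called were 2 in p212fs against WT and 1 in D18N against Trex1-/-, and in D18N against WT 6 members stayed called, while Rian (adjusted p = 0.0609) and Airn (adjusted p = 0.0596) did not; the calls of Impact and Kcnq1ot1 in p212fs against WT, Igf2 and Ube3a in p212fs against Trex1-/-, and Rtl1 in p212fs against D18N were lost as well. Kcnq1ot1 was also lost with limma-voom, Gnas (against Trex1-/-) with 2 genotypes in the fit, and both Ube3a calls with library totals.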
